A study of Mus musculus with 9 samples.

Results

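The mitochondrial respiratory chain and the ATP synthase it drives were represented on the array by 90 of 20422 measured genes. The members were taken by symbol from the array's annotation. Every gene was taken whose name starts with Nduf, Sdha to Sdhd, Uqcr, Atp5, or Cox4 to Cox8 followed by a letter. The rule itself used no measured value, but it was chosen with earlier results of these data known. They comprised 81 subunits, of which 37 belong by name to complex I, 4 to complex II, 7 to complex III, 18 to complex IV and 15 to complex V, and 9 other matches. The other matches were the assembly factors Ndufaf1 to Ndufaf4, Sdhaf1 and Sdhaf2, the genes named Atp5s and Atp5sl, and Cox4nb, a neighbour of Cox4i1 that is now named Emc8 and encodes a protein of the endoplasmic reticulum. The average gene is read by several exon-level probe sets, and the 90 members rested on 496 of them, between 1 and 20 per gene with a median of 5.

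The study asked how closely induced pluripotent stem cells of different origin come to mammary tissue when they are led towards the mammary lineage. Total RNA of 3 mouse groups was hybridised to an Affymetrix mouse gene array, with 3 arrays per group and 9 in all. The ME group is freshly isolated mammary epithelial cells, with no reprogramming or differentiation. The methods give virgin female mice 2 and 6 months old as donors of the mammary cells that were reprogrammed. For the reprogrammed tail fibroblasts they give mice 2 months old. They give no age for the ME group. D-ME-iPSC and D-TF-iPSC are iPSC lines made with retroviral reprogramming factors from mammary epithelial cells and from tail-tip fibroblasts, respectively, and then differentiated by the same stepwise mammary protocol on Matrigel, a basement membrane gel. The labels do not say whether the arrays of a group are separate animals, lines or cultures, so the p-values measure the spread between these arrays only, which may be technical, and a group may rest on few lines. The labels also do not tie the 2 donor ages of the mammary cells to arrays.

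Complexes I to IV pass electrons from NADH and succinate to oxygen, and complexes I, III and IV pump protons across the inner mitochondrial membrane. Complex V, the ATP synthase, uses the resulting gradient to make ATP. Nearly all subunits are encoded in the nucleus, and a small set is encoded by mitochondrial DNA, so the complexes need both genomes. Complex II, succinate dehydrogenase, is the exception with nuclear genes only, and it also belongs to the tricarboxylic acid cycle. Several complex IV subunits come in alternative isoforms: Cox6a2, Cox7a1 and Cox8b are known from heart and skeletal muscle, Cox4i2 from lung and from low oxygen, and Cox6b2, Cox7b2 and Cox8c from testis. Ndufa4 was long counted in complex I and its protein is now assigned to complex IV, and its paralog Ndufa4l2 is a known target of the hypoxia-inducible factor HIF1.

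The cell labels were checked with marker lists. The mean log2 level of 17 mammary epithelial markers lay between 10.2 and 10.5 in the ME and D-ME-iPSC arrays and between 7.56 and 7.71 in the D-TF-iPSC arrays, where the epithelial genes Epcam, Cdh1 and Krt8 and the milk protein gene Csn1s1 were all lower than in both other groups (adjusted p of at most 2.51e-05 in limma). The mean of 17 fibroblast markers ran the other way, from 8.97 to 9.31 against 10.4 to 10.5. Of the 17 mammary markers, 14 were called higher in each of the other groups. Within the ME group, replicate 1 stood apart, and its label is in doubt: over all genes it correlated with the D-ME-iPSC arrays at r = 0.991 to 0.993, and with ME replicates 2 and 3 at 0.920 and 0.943. Over the 90 members it differed from the D-ME-iPSC arrays by 0.110 to 0.144 log2 units on average, where those arrays differed among themselves by 0.0935 to 0.1255, and by 0.434 and 0.435 from ME replicates 2 and 3, and it was nearer to the D-ME-iPSC mean than to the mean of ME replicates 2 and 3 for 80 of 90 members. The array was kept as labelled, and the counts of the ME group are given with and without it. In bulk RNA, fewer cells of a type and less RNA per cell cannot be told apart, and values of different genes on the array are not compared.

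Upstream sequence was available for 75 of the 90 members from RefSeq (build GRCm38.p6), and 250 bases before the annotated start were searched on both strands for 4 motifs named in textbooks for respiratory genes or hypoxia. The NRF1 motif, spelled GCGCA, then any base (N), then GCGC, and bound by nuclear respiratory factor 1, was found in 18.7% of the members against 5.84% of protein-coding genes and 4.23% of all genes. The ETS motif CCGGAAG, which GABP (nuclear respiratory factor 2) can bind, was found in 18.7% against 10.2% and 7.83%. The YY1 motif AAGATGGC was found in 2.67% against 1.77% and 1.83%, and the HIF core ACGTG in 24% against 20% and 18.5%. No 2 matches overlap in the windows printed here. The following windows are shown because Ndufa4, Ndufs4, Atp5e and Cox6b2 carry the differences described below, and Sdhd and Sdha show the motifs in members that were not called with all arrays. They are written 5′ to 3′ on the strand of the gene, and capitals mark matches to the 4 motifs in either orientation.
Ndufa4, chr6:11907451-11907700, minus strand: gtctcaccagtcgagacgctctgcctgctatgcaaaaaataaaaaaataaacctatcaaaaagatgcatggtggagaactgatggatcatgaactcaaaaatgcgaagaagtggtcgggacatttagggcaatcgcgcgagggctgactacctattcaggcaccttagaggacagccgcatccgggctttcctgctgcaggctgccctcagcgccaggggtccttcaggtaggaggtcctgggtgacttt
Ndufs4, chr13:114388095-114388344, minus strand: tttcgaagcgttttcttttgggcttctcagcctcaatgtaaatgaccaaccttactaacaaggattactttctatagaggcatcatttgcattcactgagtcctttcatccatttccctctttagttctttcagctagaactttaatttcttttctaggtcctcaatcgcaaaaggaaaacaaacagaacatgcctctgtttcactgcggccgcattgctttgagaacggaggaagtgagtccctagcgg
Atp5e, chr2:174464102-174464351, minus strand: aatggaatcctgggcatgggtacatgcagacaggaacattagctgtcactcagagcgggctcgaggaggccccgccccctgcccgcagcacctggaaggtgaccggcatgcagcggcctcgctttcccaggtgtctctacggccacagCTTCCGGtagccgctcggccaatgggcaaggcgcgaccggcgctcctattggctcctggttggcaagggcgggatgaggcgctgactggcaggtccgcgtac
Cox6b2, chr7:4753095-4753344, minus strand: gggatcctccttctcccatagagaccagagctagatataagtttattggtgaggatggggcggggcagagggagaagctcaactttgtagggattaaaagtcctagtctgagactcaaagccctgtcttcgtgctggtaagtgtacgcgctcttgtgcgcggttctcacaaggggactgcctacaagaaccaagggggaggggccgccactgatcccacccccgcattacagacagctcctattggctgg
Sdhd, chr9:50603850-50604099, minus strand: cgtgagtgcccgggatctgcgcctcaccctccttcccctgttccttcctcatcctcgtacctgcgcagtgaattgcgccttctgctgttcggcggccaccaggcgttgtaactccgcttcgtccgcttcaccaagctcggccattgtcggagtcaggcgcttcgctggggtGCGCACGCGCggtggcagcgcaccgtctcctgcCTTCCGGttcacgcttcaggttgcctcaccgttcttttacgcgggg
Sdha, chr13:74350241-74350490, minus strand: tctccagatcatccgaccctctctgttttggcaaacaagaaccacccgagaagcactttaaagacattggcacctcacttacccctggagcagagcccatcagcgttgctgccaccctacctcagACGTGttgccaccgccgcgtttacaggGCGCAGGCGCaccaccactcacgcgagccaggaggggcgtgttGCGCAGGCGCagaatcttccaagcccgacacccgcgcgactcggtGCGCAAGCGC
Ndufa4, Ndufs4 and Cox6b2 had none of the 4 motifs in this window, Atp5e had 1 ETS match, Sdhd had 1 NRF1 and 1 ETS match, and Sdha had 3 NRF1 matches and 1 HIF core. A match is a description of the sequence only.

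Relative to D-TF-iPSCs, most respiratory chain genes differed little in ME cells when all 9 arrays were used, and a few stood out. This depended on ME replicate 1, without which 9 members were higher and 26 lower, or 10% and 28.9%. In that fit 16.4% of all genes were higher and 22.8% lower, and 19.9% and 36.5% of genes above the median level. With all 9 arrays, 6 of 90 members were higher in ME cells (Ndufs4, Ndufb5, Uqcrb, Atp5e, Uqcrfs1 and Ndufa4) and 4 were lower (Ndufa4l2, Cox6b2, Ndufv3 and Ndufc1) at an adjusted p under 0.05 in limma. Among all genes, 7.5% were called higher and 8.78% lower, so the members' shares of 6.67% and 4.44% did not exceed this background. Among genes above the median level the shares were 12% and 12.6%. The ME and D-TF-iPSC arrays did not overlap for 10 members on the higher and 7 on the lower side, or 11.1% and 7.78%, against 14.4% and 14.9% of all genes, and the member median difference was -0.0002 on the log2 scale against 0.0102 over all genes. In D-ME-iPSCs against D-TF-iPSCs, 6 members were higher (Ndufa4, Uqcrb, Ndufs4, Atp5e, Ndufb2 and Ndufa5) and 3 were lower (Ndufa4l2, Cox6b2 and Ndufv3), with 6.83% of all genes called higher and 6.45% lower, and 11.3% and 8.14% of genes above the median level. Both comparisons use the same D-TF-iPSC arrays, so their calls are not independent of each other. Apart from Ndufa4l2 in both, Ndufs4 in ME cells and Ndufa4 in D-ME-iPSCs, each call was lost when some 1 array was left out. The difference was within 0.5 log2 units in all 3 comparisons for 71 of 90 members.

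**Figure D1:**
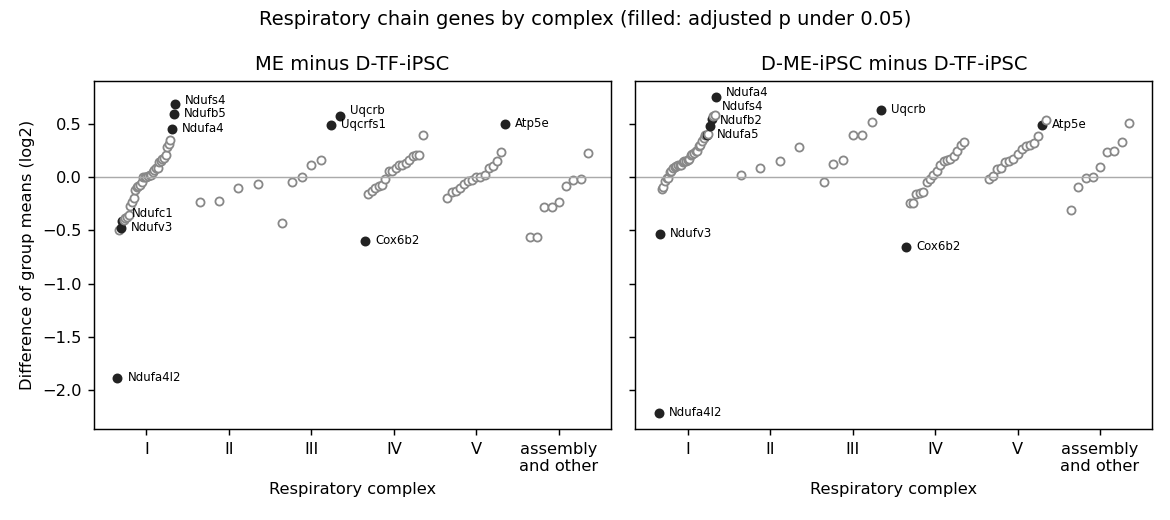
Log2 difference of the group means (vertical axis) for each of the 90 members by complex (horizontal axis), ME minus D-TF-iPSC on the left and D-ME-iPSC minus D-TF-iPSC on the right, with all 9 arrays. Filled, named points passed an adjusted p of 0.05 in limma. Ndufa4l2 lies alone at -1.88 and -2.22, and the other called members lie between -0.66 and 0.75.

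In D-ME-iPSCs most member differences were small and positive, with Ndufa4l2 as the largest exception. The median difference from D-TF-iPSCs was 0.15 on the log2 scale, with 70 of 90 positive, against -0.01 over all genes and 0.06 over genes above the median level, a set that holds 82 of the 90 members. All 3 D-ME-iPSC arrays lay above all 3 D-TF-iPSC arrays for 44 members, or 48.9%, and below them for 5, or 5.56%. The same held for 25.2% and 23.2% of all genes, and for 39.8% and 27.6% of genes above the median level. By complex, with genes grouped by name, the median difference was 0.39 for complex III, 0.22 for complex V, 0.16 for complex I, 0.12 for complex II and 0.04 for complex IV. When only the 6 arrays of these groups were fitted, 34 members were higher and 5 lower, or 37.8% and 5.56%, against 20.6% and 17.6% of all genes and 33.6% and 22.3% of genes above the median level. The same kind of fit gave 1 higher and 1 lower member in ME cells, against 4.1% and 4.48% of all genes and 6.86% and 6.39% of genes above the median level. In D-ME-iPSCs the share of higher members was thus near that of other well-expressed genes, while the share of lower members was smaller.

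Ndufa4l2 had the largest difference of any member in both comparisons with D-TF-iPSCs. Its log2 levels were 8.65, 8.69 and 8.58 in the D-TF-iPSC arrays. They were 6.41, 6.75 and 7.10 in the ME arrays and 6.25, 6.38 and 6.63 in the D-ME-iPSC arrays. The D-TF-iPSC arrays were therefore close together and well above every array of the other groups. The difference was -1.88 ± 0.17 (SE from the spread shared by all groups, n = 3 per group, adjusted p = 0.000147) for ME cells and -2.22 ± 0.17 (adjusted p = 6.61e-05) for D-ME-iPSCs. All 4 of its probe sets were lower with no overlap of the arrays in both comparisons, and the call was kept in each alternative fit and with any array left out.

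Ndufa4, the paralog that forms part of complex IV in most tissues, went the opposite way. Its levels were 10.34, 10.54 and 10.41 in D-TF-iPSCs and 11.22, 11.18 and 11.15 in D-ME-iPSCs. They were 11.14, 10.87 and 10.64 in ME cells, so that neither group overlapped D-TF-iPSCs. The difference was 0.75 ± 0.13 (adjusted p = 0.0054) for D-ME-iPSCs and 0.45 ± 0.13 (adjusted p = 0.0471) for ME cells. All 5 probe sets were higher in both comparisons. The D-ME-iPSC call was kept with any array left out, and the ME call only without ME replicate 1 or ME replicate 3. Under limma array weights the ME value was 0.19, still called.

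**Figure D2:**
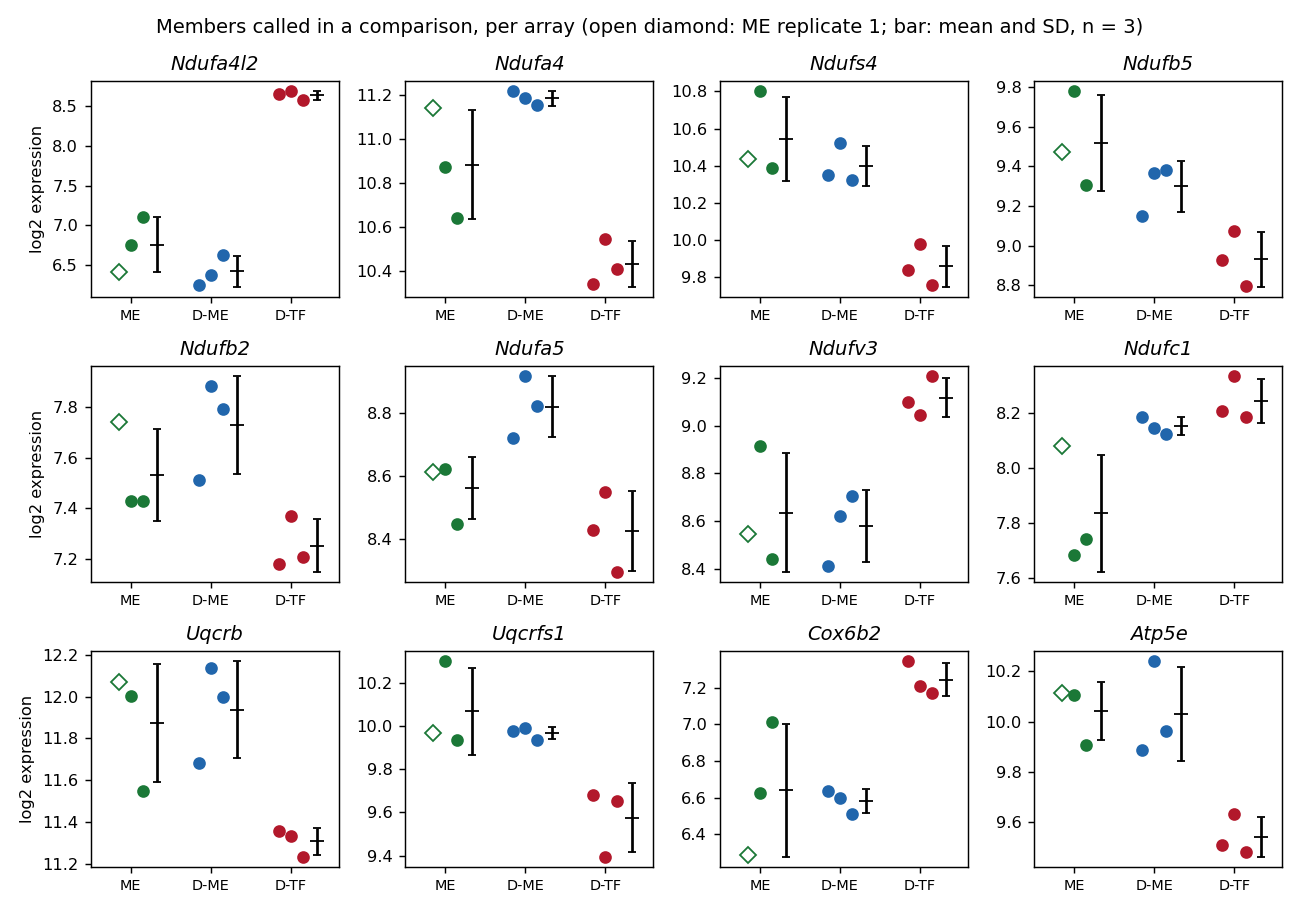
Log2 expression (vertical axis) of the 12 members called in a comparison, for each array of the ME, D-ME-iPSC (D-ME) and D-TF-iPSC (D-TF) groups. The open diamond is ME replicate 1, and the bars are the group mean and SD over 3 arrays. Ndufa4l2, Ndufv3 and Cox6b2 are highest in D-TF-iPSCs, and Ndufa4, Ndufs4, Ndufb5, Ndufb2, Uqcrb, Uqcrfs1 and Atp5e are lowest there.

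Among the other genes grouped by name with complex I, Ndufs4 was higher than in D-TF-iPSCs in both groups. It encodes an accessory subunit near the NADH-oxidising end of the complex, and its loss causes Leigh-like encephalopathy in mice. Its levels were 9.84, 9.97 and 9.76 in D-TF-iPSCs, 10.35, 10.52 and 10.32 in D-ME-iPSCs and 10.44, 10.80 and 10.39 in ME cells. Every ME and D-ME-iPSC array lay above the D-TF-iPSC arrays. The difference was 0.69 ± 0.13 (adjusted p = 0.00783) for ME cells and 0.54 ± 0.13 (adjusted p = 0.0261) for D-ME-iPSCs. The ME call was kept with any array left out, while the D-ME-iPSC call was kept in 3 of 9 such fits. Its 6 probe sets spanned -0.11 to 1.91 in ME cells and 0.11 to 1.57 in D-ME-iPSCs, so the exons of Ndufs4 did not move evenly, and with the median of the probe sets the D-ME-iPSC value was 0.34 and not called.

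Ndufb5, Ndufb2 and Ndufa5 encode further accessory subunits. Ndufb5 was 9.47, 9.78 and 9.31 in ME cells against 8.93, 9.07 and 8.79 in D-TF-iPSCs, without overlap, and the difference of 0.59 ± 0.14 had an adjusted p of 0.0223. All 8 of its probe sets were higher. In D-ME-iPSCs the Ndufb5 difference was 0.37 (adjusted p = 0.142) and was not called. Ndufb2 (0.48 ± 0.14, adjusted p = 0.0494) and Ndufa5 (0.40 ± 0.11, adjusted p = 0.0415) were higher in D-ME-iPSCs only by a narrow margin, with ME differences of 0.28 and 0.14 that were not called. Ndufa5, like Ndufb7, Ndufa9, Ndufb4 and Atp5k below, was named after its values were seen.

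Ndufv3 and Ndufc1 were lower. Ndufv3 encodes the smallest subunit of the flavoprotein part of complex I, and its levels were 9.10, 9.05 and 9.21 in D-TF-iPSCs, 8.55, 8.92 and 8.44 in ME cells and 8.41, 8.62 and 8.71 in D-ME-iPSCs. The D-TF-iPSC arrays were the highest in both comparisons, and all 5 probe sets agreed in direction. The difference was -0.48 ± 0.14 (adjusted p = 0.0475) for ME cells and -0.54 ± 0.14 (adjusted p = 0.0351) for D-ME-iPSCs, and the ME call was lost under quantile normalization and under median centring. Ndufc1, a small membrane-arm subunit, was lower in ME cells only by the test (-0.41 ± 0.12, adjusted p = 0.0475, against -0.09 with adjusted p = 0.76 for D-ME-iPSCs), and its probe sets ranged from -1.22 to 0.07. With the median of its probe sets the value was -0.16. Of the core subunits, Ndufs1 and Ndufv1 were not called with all arrays. Ndufs1, which holds iron-sulfur clusters, had differences from D-TF-iPSCs of -0.40 in ME cells and 0.04 in D-ME-iPSCs, and Ndufv1, which binds NADH, had -0.13 and 0.40. Without ME replicate 1, the ME values were -0.74 (adjusted p = 0.000798) for Ndufs1 and -0.34 (adjusted p = 0.0404) for Ndufv1, and the D-ME-iPSC value of Ndufv1 had an adjusted p of 0.0144.

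**Figure D3:**
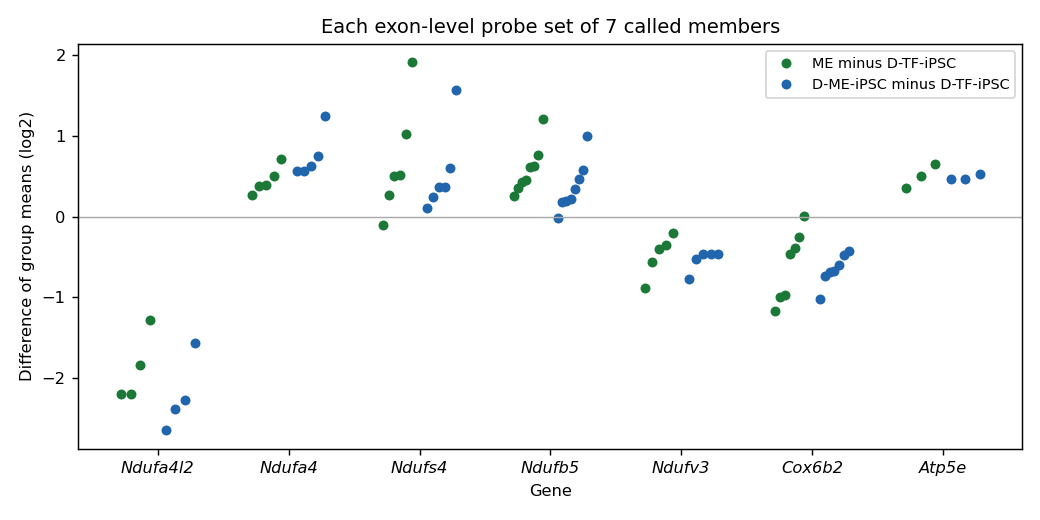
Log2 difference from D-TF-iPSCs (vertical axis) for each exon-level probe set of 7 called members (horizontal axis), in ME cells and in D-ME-iPSCs, with all 9 arrays. All 4 probe sets of Ndufa4l2 lie below -1.2, while those of Ndufs4 and Ndufb5 are spread widely.

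None of the 4 complex II genes was called against D-TF-iPSCs with all arrays. When ME replicate 1 was left out, Sdha (-0.32, adjusted p = 0.0158) and Sdhc (-0.38, adjusted p = 0.0167) were lower in ME cells. Sdha, the flavoprotein that oxidises succinate, was 10.21, 9.99 and 9.90 in ME cells, 10.30, 10.20 and 10.34 in D-ME-iPSCs and 10.30, 10.27 and 10.22 in D-TF-iPSCs. The iron-sulfur subunit Sdhb had differences from D-TF-iPSCs of -0.10 in ME cells and 0.28 in D-ME-iPSCs, the membrane anchor gene Sdhc had -0.22 and 0.09, and the other anchor gene, Sdhd, had -0.06 and 0.15. In complex III, the Rieske iron-sulfur protein gene Uqcrfs1 was 9.97, 10.30 and 9.94 in ME cells, 9.98, 9.99 and 9.94 in D-ME-iPSCs and 9.68, 9.39 and 9.65 in D-TF-iPSCs. D-TF-iPSCs were lowest without overlap, with a difference of 0.49 ± 0.13 (adjusted p = 0.0296) for ME cells and 0.39 ± 0.13 (adjusted p = 0.0816) for D-ME-iPSCs. Uqcrb, a small subunit near the quinone site, was between 11.55 and 12.07 in ME cells, between 11.68 and 12.13 in D-ME-iPSCs and 11.35, 11.33 and 11.23 in D-TF-iPSCs. It was lowest in D-TF-iPSCs without overlap, and higher in ME cells (0.57 ± 0.16, adjusted p = 0.0445) and in D-ME-iPSCs (0.63 ± 0.16, adjusted p = 0.0332). It rested on 1 probe set. The 5 probe sets that name Uqcrb together with another gene gave 0.40 to 0.61 and 0.13 to 0.32, and with them added the D-ME-iPSC value was 0.28 and not called. The core subunit gene Uqcrc1 had -0.05 and 0.52, neither called with all arrays. Its ME value without ME replicate 1 was -0.44 (adjusted p = 0.00911), and the D-ME-iPSC value had an adjusted p of 0.00286.

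Of the members grouped with complex IV by name, 1 was called in each comparison with D-TF-iPSCs, the testis isoform Cox6b2. Ndufa4, whose protein is now assigned to complex IV, was counted with complex I by its name, as was its paralog Ndufa4l2. Cox6b2 was 7.34, 7.21 and 7.17 in D-TF-iPSCs, 6.64, 6.60 and 6.51 in D-ME-iPSCs and 6.28, 6.62 and 7.01 in ME cells, so D-TF-iPSCs were highest in every array. The difference was -0.60 ± 0.17 (adjusted p = 0.0377) for ME cells and -0.66 ± 0.17 (adjusted p = 0.0294) for D-ME-iPSCs. Of its 7 probe sets, 6 were lower in ME cells and all 7 in D-ME-iPSCs. Its levels lay near the median of all genes, 7.14. The mean of 10 spermatogenic cell markers was between 5.67 and 5.89 in all arrays, and none was called with all arrays. Their lowest single difference was -0.60 in ME cells and -0.64 in D-ME-iPSCs. Without ME replicate 1, 1 of the 10 was called lower in ME cells, beside 22.8% of all genes. The ubiquitous counterpart Cox6b1 had -0.08 and 0.12. Under array weights the ME value was -0.24, still called. For the other isoform pairs no difference from D-TF-iPSCs was called with all arrays: Cox4i1 had 0.21 in ME cells and 0.24 in D-ME-iPSCs, and Cox4i2 had 0.06 and -0.15. Cox6a1 had -0.13 and -0.02, and Cox6a2 had -0.11 and -0.25. Cox7a1 had 0.19 and -0.14, and Cox7a2 had -0.16 and 0.33. Cox7a2l, which helps to join complexes III and IV into supercomplexes, had -0.08 and -0.25. The pairs Cox7b (0.11 and 0.20) and Cox7b2 (0.08 and -0.15), and the trio Cox8a (0.40 and 0.17), Cox8b (0.16 and -0.05) and Cox8c (0.13 and 0.02), gave no call either. With ME replicate 1 left out, Cox7a1 (0.48, adjusted p = 0.0182) and Cox8a (0.50, adjusted p = 0.0236) were higher in ME cells, and Cox7a2 was lower in ME cells (-0.34, adjusted p = 0.0126) and higher in D-ME-iPSCs (0.33, adjusted p = 0.0117).

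In complex V, Atp5e, the epsilon subunit in the central stalk of the ATP synthase, was higher in both groups. It was 10.11, 10.11 and 9.91 in ME cells, 9.89, 10.24 and 9.96 in D-ME-iPSCs and 9.51, 9.63 and 9.48 in D-TF-iPSCs. The D-TF-iPSC arrays lay below all others. The difference was 0.50 ± 0.12 (adjusted p = 0.0217) for ME cells and 0.49 ± 0.12 (adjusted p = 0.0273) for D-ME-iPSCs, and all 3 probe sets were higher without overlap. The catalytic head genes Atp5a1 (0.02 and 0.22) and Atp5b (-0.03 and 0.01) were not called, nor were the genes for the proton-carrying subunit c, Atp5g1 (-0.10 and 0.14), Atp5g2 (0.10 and 0.07) and Atp5g3 (-0.04 and 0.29). Atp5g3 was called higher in D-ME-iPSCs only without ME replicate 1 among the fits that left out an array (adjusted p = 0.036). None of the 9 assembly factors and other matches was called in either comparison with all arrays. Without ME replicate 1, 5 of the 9 were lower and 0 higher in ME cells, beside 22.8% and 16.4% of all genes. Of genes above the median level, 36.5% were lower and 19.9% higher in this fit. The 5 included Ndufaf1 (-0.93), Sdhaf2 (-0.82) and Ndufaf4 (-0.66), named after their values were seen. In D-ME-iPSCs 2 of the 9 were higher and 1 lower, beside 15.5% and 12.8% of all genes.

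No member was called between ME cells and D-ME-iPSCs with all 9 arrays, and 0% of all genes were called. At an unadjusted p under 0.05, limma gave 21 members lower and 0 higher in ME cells, against 10.9% and 8.03% of all genes. Of the 10211 genes above the median level, 1951 were lower and 1019 higher in the same way. The test named in the methods gave 4 members lower and 0 higher unadjusted, and 0 in both directions after adjustment. No member had all ME arrays above all D-ME-iPSC arrays and 12, or 13.3%, had them below. The same held for 8.11% and 5.96% of all genes, and for 8.87% and 9.11% of genes above the median level. The median member difference was -0.15 on the log2 scale, against 0.01 over all genes and -0.12 over genes above the median level. It was -0.25 without ME replicate 1, -0.32 under array weights and -0.08 under quantile normalization. The spread within the ME group was wide, with replicate 1 near the D-ME-iPSC arrays. For Ndufb7, an accessory subunit of the complex I membrane arm, the ME levels were 9.79, 8.41 and 8.63 beside 9.74, 9.96 and 9.92 in D-ME-iPSCs and 9.31, 9.50 and 9.10 in D-TF-iPSCs. For Uqcrc1 they were 9.01, 7.81 and 7.86 beside 8.66, 8.76 and 8.96. In each gene replicate 1 alone was high among the ME arrays.

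**Figure D4:**
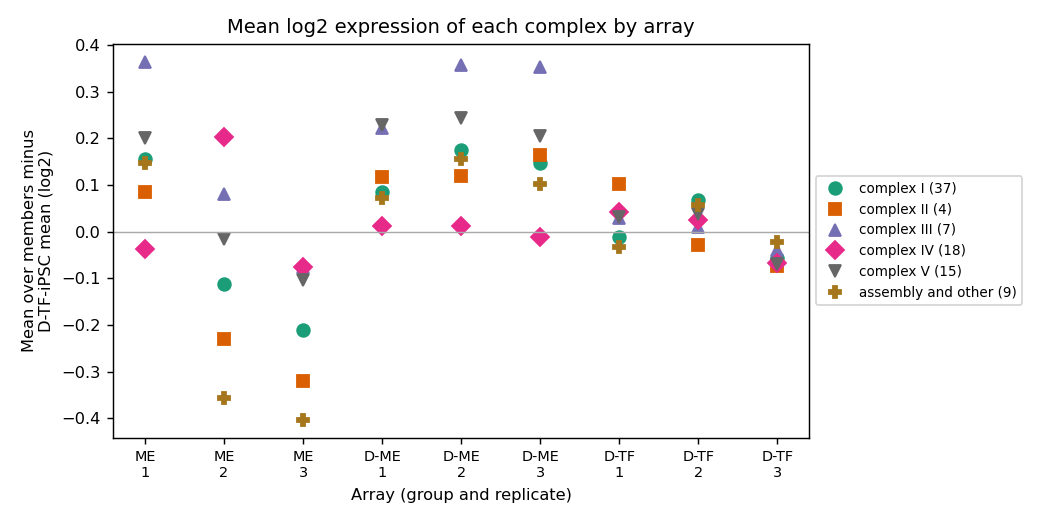
Mean log2 expression over the members of each complex (vertical axis, minus the mean of the 3 D-TF-iPSC arrays) for each of the 9 arrays (horizontal axis), with the number of members in parentheses. In complex I, ME replicate 1 lies within the D-ME-iPSC range at 0.16, and in complexes I and II replicates 2 and 3 lie between -0.11 and -0.32, below all other arrays. Complex IV does not show this order.

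Without ME replicate 1, 39 of 90 members were lower and 4 higher in ME cells than in D-ME-iPSCs, or 43.3% and 4.44%. Of all genes, 23.6% were lower and 15.1% higher, but of genes above the median level 41% were lower and 15.3% higher, so the share of lower members was near that of other well-expressed genes. In the same arrays the upper quartile of the probe sets was 8.97 and 9.05 in ME replicates 2 and 3 and between 9.12 and 9.28 in the other 7 arrays. The part of this lower bright range in the result was not tested. The ME means in this fit rested on ME replicates 2 and 3 only. Over the members these arrays differed by 0.245 log2 units on average, against 0.0935 to 0.1436 within the other groups. The SE and p below use a spread shared with those tighter groups, so they say little about the spread of ME cells. The lower members were 16 in complex I, 4 in complex II, 3 in complex III, 2 in complex IV, 8 in complex V and 6 of the other matches, led by Ndufb7 (-1.35 ± 0.13, adjusted p = 5.83e-05) and Atp5k (-1.04 ± 0.10, adjusted p = 6.33e-05), which encodes a membrane subunit of the ATP synthase. Ndufa9 (adjusted p = 0.000194), Uqcrc1 (-0.96), Ndufb4 (-0.92), Ndufs1 (-0.78) and Ndufv1 (-0.74) were among them. The 4 complex II genes were all lower, from -0.53 for Sdhb to -0.29 for Sdhd. The 4 higher members were Cox7a1 (0.62), Ndufa4l2 (0.51), Ndufb11 (0.37) and Cox4i2 (0.35), the last 3 of them with adjusted p from 0.0153 to 0.0234.

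The muscle isoform Cox7a1 was 6.26, 7.26 and 6.98 in ME cells against 6.66, 6.43 and 6.40 in D-ME-iPSCs, and 18 markers of skeletal and heart muscle had a mean of 6.63, 7.07 and 7.08 in ME cells against 6.72 to 6.81 in D-ME-iPSCs and 6.72 to 6.77 in D-TF-iPSCs. Their part in the Cox7a1 value was not tested. Cox7a2, the counterpart found in most tissues, was 9.32, 8.82 and 8.70 against 9.40, 9.47 and 9.45, with a difference of -0.67 (adjusted p = 0.000309) without ME replicate 1. Against D-TF-iPSCs, leaving out ME replicate 1 raised the counts in ME cells to 9 higher and 26 lower members, or 10% and 28.9%, beside 16.4% and 22.8% of all genes and 19.9% and 36.5% of genes above the median level. All 10 members called with all 9 arrays were called again. Their differences were then 0.74 for Ndufs4, 0.61 for Ndufb5, 0.54 for Uqcrfs1, 0.47 for Uqcrb, 0.47 for Atp5e and 0.32 for Ndufa4 among the higher, and -1.71 for Ndufa4l2, -0.43 for Cox6b2, -0.44 for Ndufv3 and -0.53 for Ndufc1 among the lower. The same fit gave 21 higher and 4 lower members in D-ME-iPSCs, beside 15.5% and 12.8% of all genes and 25.8% and 16.6% of genes above the median level.

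The subunits encoded by mitochondrial DNA had the opposite sign to the median of the nuclear members in D-ME-iPSCs. Of this list 7 were measured, named ND1, ND2, ND4L, ND6, COX1, COX3 and ATP6 by the annotation, and their probe sets may also match nuclear copies of mitochondrial sequence. ATP6, a proton-channel subunit of complex V, had the largest difference of the 7 in each comparison. Its levels were 10.47, 11.29 and 11.26 in ME cells, 10.23, 9.82 and 9.76 in D-ME-iPSCs and 10.39, 10.78 and 10.74 in D-TF-iPSCs. All D-ME-iPSC arrays were below the others, while ME replicate 1 fell among the D-TF-iPSC arrays. The difference was -0.70 for D-ME-iPSCs and 0.37 for ME cells against D-TF-iPSCs, and 1.07 for ME cells against D-ME-iPSCs. None of the 7 was called with all arrays (3 lower in D-ME-iPSCs than D-TF-iPSCs and 6 higher in ME cells than D-ME-iPSCs at an unadjusted p under 0.05 in limma). At that threshold 2402 and 1640 of all 20422 genes were lower and higher in the same way. The median difference over the list was -0.25 in D-ME-iPSCs and 0.16 in ME cells against D-TF-iPSCs, and all 7 had the sign of the median in each. Without ME replicate 1, all 7 had a higher mean in ME cells than in D-ME-iPSCs, by a median of 0.46. In that fit 39 of the 90 nuclear members were called lower, a share near the 41% of genes above the median level. The count of 7 is of signs and the count of 39 is of calls, so they are not compared.

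For genes that work beside the respiratory chain, counts are given as higher and lower with all 9 arrays, first in ME cells and then in D-ME-iPSCs, each against D-TF-iPSCs. They are to be read against 7.5% and 8.78%, then 6.83% and 6.45%, of all genes. Among genes above the median level the shares were 12% and 12.6%, then 11.3% and 8.14%. Of 36 assembly factor and cofactor genes outside the symbol rule, 1 was higher and 3 lower, then 2 and 1. The complex I assembly factor Acad9 was higher in both (0.90 and 0.52), Ttc19 of complex III was lower in both (-0.61 and -0.51), and the copper chaperone gene Cox19 was lower in ME cells (-1.10). Cyc1, the cytochrome c1 gene of complex III, which the rule does not reach, had -0.15 and 0.41 and was not called. Of 74 mitochondrial ribosomal protein genes, 4 were higher and 2 lower, then 6 and 0, with a median of 0.27 in D-ME-iPSCs. Of 18 tricarboxylic acid cycle genes, 2 were higher and 0 lower, then 1 and 0, with Suclg2, a succinyl-CoA ligase subunit, higher in both (0.49 and 0.43) and Idh3g in ME cells (0.51).

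Of 17 fatty acid oxidation genes, 5 were higher and 1 lower, then 1 and 0. Acadl, the long-chain acyl-CoA dehydrogenase, was higher in both groups (0.86 and 1.01), Hadha in ME cells (0.52), and Etfb, which passes electrons from this pathway towards the chain, was lower in ME cells (-0.85). Of 24 carriers, channels and antioxidant genes, 4 were higher and 1 lower, then 3 and 0. The inner membrane carrier gene Ucp2 was higher in both (1.87 and 1.68), as was glutathione reductase, Gsr (0.91 and 1.52), the manganese superoxide dismutase gene Sod2 was higher in ME cells (1.11) and Prdx5 was lower in ME cells (-0.35). Of 21 regulators of mitochondrial genes, 2 were higher and 1 lower, then 1 and 1. The coactivator Ppargc1a (1.32) and Myc (0.87) were higher and the mitochondrial single-strand binding protein Ssbp1 (-0.76) was lower in ME cells, and Nrf1, whose motif is printed above, was higher (0.51) and Hif1a lower (-0.80) in D-ME-iPSCs.

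Of 19 glycolysis genes, 2 were higher and 8 lower in ME cells, among them Aldoc (1.25), Slc2a1 (0.93), Slc16a3 (-0.78) and Eno2 (-0.78). In D-ME-iPSCs, 1 was higher, Hk1 (0.39), and 4 were lower, among them Eno2 (-1.32) and Pfkm (-0.66). Of 14 hypoxia response genes, 3 were higher and 3 lower in ME cells, and 1 was higher and 4 lower in D-ME-iPSCs. Bnip3 (-2.03), P4ha1 (-1.54) and P4ha2 (-1.32) were among the lower ones in D-ME-iPSCs, in the same direction as Ndufa4l2, and Ddit4 (0.68) was higher. In ME cells P4ha2 (-1.53) and P4ha1 (-1.48) were among the lower ones, and Kdm3a (1.34), Car9 (1.17) and Ddit4 (0.96) were higher. The mean level of the list was 8.71, 9.41 and 9.84 in the ME arrays, 8.64 to 8.72 in D-ME-iPSCs and 9.26 to 9.28 in D-TF-iPSCs. ME replicates 2 and 3 had the highest list means, and their Ndufa4l2 levels were below those of D-TF-iPSCs. The part of low oxygen in the Ndufa4l2 values was not tested.

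Many of these counts depended on ME replicate 1. Without it, the counts higher and lower in ME cells were 2 and 18 for the assembly factors and cofactor genes, 6 and 19 for the mitochondrial ribosomal proteins, and 4 and 8 for the tricarboxylic acid cycle. They were 6 and 4 for fatty acid oxidation, 4 and 10 for the carriers and antioxidants, 6 and 3 for the regulators, 3 and 10 for glycolysis and 6 and 4 for the hypoxia response. The shares were 16.4% and 22.8% of all genes, and 19.9% and 36.5% of genes above the median level. In D-ME-iPSCs the same fit gave 8 and 4, 27 and 1, 7 and 0, 2 and 1, 8 and 1, 5 and 2, 3 and 8, and 1 and 8 in the same order. The shares were 15.5% and 12.8% of all genes, and 25.8% and 16.6% of genes above the median level.

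**Figure D5:**
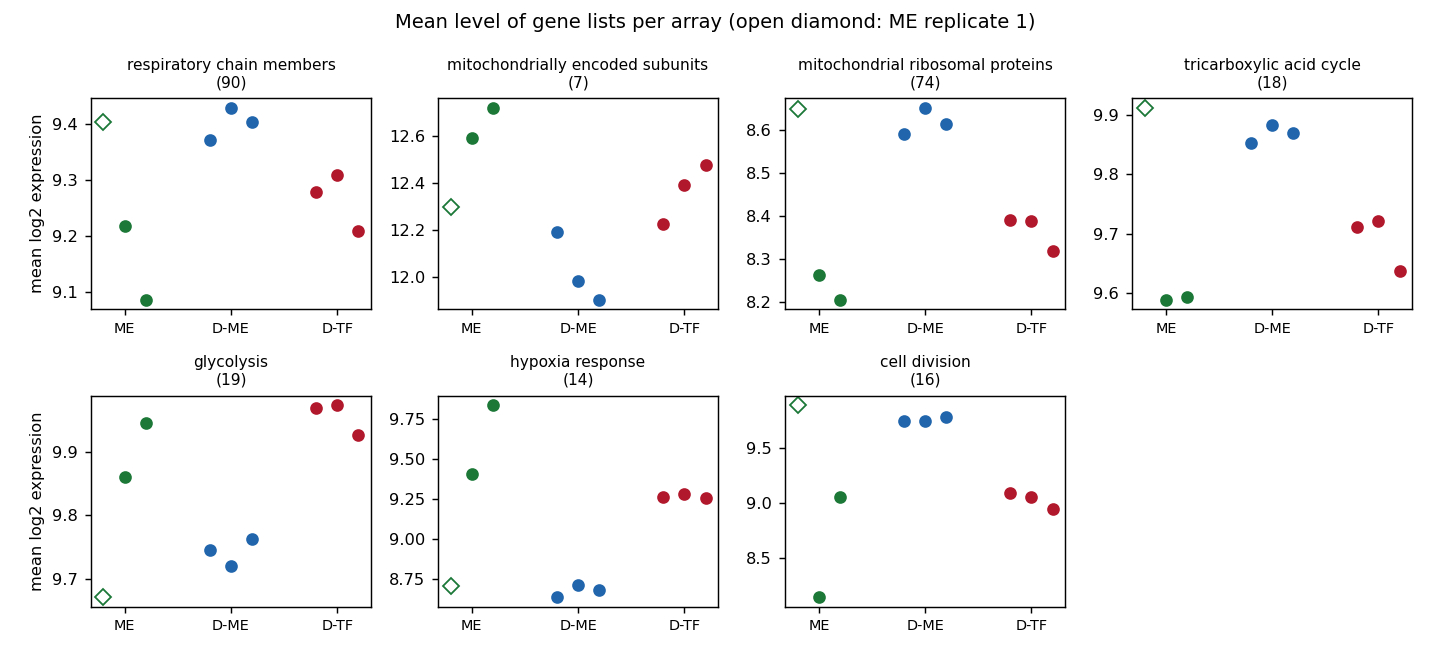
Mean log2 expression (vertical axis of each panel) of the 90 members and of 6 gene lists for each array of the ME, D-ME-iPSC (D-ME) and D-TF-iPSC (D-TF) groups, with ME replicate 1 as an open diamond and the number of genes in parentheses. The mitochondrially encoded list is lowest in D-ME-iPSCs, where the members, the mitochondrial ribosomal proteins and the tricarboxylic acid cycle are high.

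Other measures moved with these values. The mean of 16 cell division genes was 9.89, 8.14 and 9.06 in the ME arrays, 9.75 to 9.78 in D-ME-iPSCs and 8.95 to 9.09 in D-TF-iPSCs, with 2 of them called higher and 0 lower in D-ME-iPSCs against D-TF-iPSCs. For all 16 the D-ME-iPSC arrays lay above the D-TF-iPSC arrays, with a median difference of 0.66, and 10 were called higher without ME replicate 1. The mean of 13 adipocyte markers was 6.68, 7.31 and 7.11 in the ME arrays and 6.72 to 6.96 in the others. The mean of 16 leukocyte markers was 6.45, 7.02 and 6.57 in the ME arrays, 6.37 to 6.44 in D-ME-iPSCs and 7.00 to 7.15 in D-TF-iPSCs, and 10 endothelial markers had 7.76, 7.28 and 7.29 in the ME arrays and 7.72 to 7.88 in the others. The fibroblast markers, with 15 of 17 lower in ME cells and 13 of 17 in D-ME-iPSCs, moved with Ndufa4l2, Ndufv3 and Cox6b2. The 11 pluripotency markers (6.23 to 6.60) and the 2 erythroid markers measured (4.75 to 5.38) had low means in all arrays. The part of these cell types and of cell division in the respiratory chain values was not tested.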

How the data were processed

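The labels and methods describe total RNA labelled with biotin and hybridised to 9 Affymetrix mouse gene arrays. The deposited values are log2 expression per exon-level probe set, which the authors made with RMA and Partek (versions not given in the sources used here) by background correction, normalization and summarisation. RMA compresses dim values, so differences of dim genes are understated. Of 241576 probe sets, 212138 with exactly 1 gene symbol were averaged on the log2 scale into 20422 genes, and 4672 with several symbols were left out. A model with a mean for each group was fitted to the 9 arrays together in limma 3.58.1 under R 4.3.3. The groups thus shared 1 estimate of the spread per gene. Averaged over all genes, however, the ME arrays differed among themselves by 0.29 to 0.53 log2 units. The arrays within the D-ME-iPSC and the D-TF-iPSC group differed by 0.12 to 0.14. The SE and p of a comparison therefore do not describe the spread of its 2 groups alone. A call needed a p under 0.05 after Benjamini-Hochberg adjustment across the 20422 genes. The number of arrays limits the precision. The members, the gene lists and the markers were chosen with earlier results of these data known. Named members are the 5 called members with the largest fold each way in each comparison, the isoform families, complex II and core subunits, and in the other lists the top 2 called genes by fold in each direction and Cyc1, with exceptions marked. Other normalizations, probe set summaries, fits and thresholds, and leaving out each array, were tried. Figures were drawn with matplotlib.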

Additional observations from a re-analysis of the deposited data

How the results depend on the processing

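Of the member differences named in the text and called, none changed sign. Ndufa4l2 in both comparisons with D-TF-iPSCs and Ndufa4 in D-ME-iPSCs kept their calls in every alternative fit and with any array left out. Ndufs4 in ME cells lost its call only under the adjusted Student test. The other calls were near the threshold. Counts below are members higher and lower in ME cells against D-TF-iPSCs (6 and 4 as reported), then in D-ME-iPSCs against D-TF-iPSCs (6 and 3), and then in ME cells against D-ME-iPSCs (0 and 0) where they moved. The median of the probe sets gave 2 and 2, then 2 and 1, and the brightest probe set gave 2 and 1, then 1 and 1. Fitting only the 6 arrays compared gave 1 and 1, then 34 and 5. The adjusted Student test gave 0 and 1, then 21 and 3, and the unadjusted Student test gave 35 and 5 in D-ME-iPSCs and 4 lower in ME cells against D-ME-iPSCs. Unadjusted limma gave 16 higher in D-ME-iPSCs and 21 lower in ME cells against D-ME-iPSCs. An adjusted p under 0.01 gave 1 and 1, then 1 and 1, and a fold of at least 1.5 gave 2 and 2, then 2 higher. Array weights gave 11 and 48, then 33 and 6, then 6 and 61, and they moved the ME values of Uqcrb to 0.25 and of Ndufb5 to 0.35. The weights were 8.98 for ME replicate 3, 0.142 for replicate 2 and 0.0658 for replicate 1, so the ME values rested mostly on 1 array. No share of all genes stands beside the counts in this section, so they do not show whether the members differ from other genes. Quantile normalization, median centring and limma with a trend and robust spread left 2, 1 and 2 lower members in ME cells. The cause of these moves was not tested.

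Leaving out each of the 9 arrays in turn gave 1 to 9 higher and 1 to 26 lower members in ME cells against D-TF-iPSCs, 1 to 21 and 1 to 4 in D-ME-iPSCs against D-TF-iPSCs, and 0 to 4 and 0 to 39 in ME cells against D-ME-iPSCs. The highest counts came without ME replicate 1. Without D-TF-iPSC replicate 1 or 3 only Ndufa4l2 and Ndufs4 of 10 calls in ME cells were kept, and without D-TF-iPSC replicate 2 also Ndufb5. Without D-ME-iPSC replicate 2 or 3 the ME calls kept were 4 of 10, without D-ME-iPSC replicate 1 or ME replicate 2 they were 5, and without ME replicate 3 they were 8. In D-ME-iPSCs, leaving out D-ME-iPSC replicate 2 or 3 or any D-TF-iPSC array kept only Ndufa4 and Ndufa4l2 of 9 calls, without D-ME-iPSC replicate 1 the calls kept were 5, and without ME replicate 3 Ndufb2 was lost.

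Same-numbered arrays did not deviate together: the correlations of their deviations from the group means ran from -0.18 to 0.16, and 1 of 9 arrays matched its own number best, so the numbers were not taken to pair the samples. With the replicate number as a block, 3 members were higher and 1 lower in each comparison with D-TF-iPSCs. Adding the probe sets with several symbols, an alternative chosen after seeing the data, removed the Uqcrb call in D-ME-iPSCs. No other background correction could be tried on values that had been corrected before deposit. The median difference of the members moved in each alternative by less than 1 SD of the per-array member medians in the more variable group compared. In the ME comparisons that group was ME, with member medians of 9.59, 8.94 and 8.89. This spread is wide beside the differences, so the measure cannot show that the ME medians were stable. Against D-ME-iPSCs the ME median ran from -0.32 under array weights to -0.08 under quantile normalization.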
